A study of Apis mellifera with 6 samples.

Results

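The cuticle that covers a bee antenna is built from chitin fibres and a matrix of cuticular proteins. Of the 9362 genes listed in the antennal comparison, 26 had a symbol of a cuticular protein family, and these genes are described here. They were found by the start of the symbol, which was CPR for 18 genes, CPF for 2, Apd for 3 and Cpap3 for 3. No listed or annotated symbol started with CPLCP, a further family that the search included. Cuticular protein genes under other symbols, such as those starting with LOC, were not searched for. Counts and shares below therefore cover the 26 genes only, and not every gene of a family. The annotation of the assembly Amel_HAv3.1 holds 27 genes with such symbols, and all 26 symbols among them that differ with case ignored were listed.

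Antennal RNA of adult worker bees (Apis mellifera) was sequenced in 6 libraries, 3 from wt worker bees and 3 from dsx stop/stop worker bees, each from pooled RNA of 5 bees. In dsx stop/stop worker bees, both copies of dsx, which encodes a transcription factor of the sex-determination pathway, carry stop mutations that CRISPR-Cas9 induced separately in each bee. The study used the comparison to ask whether dsx sets the expression of chemosensory genes, and the cuticular protein genes were not part of that question. The age of the bees at RNA extraction is not given in the sources used here.

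All values come from a deposited table of the authors that gives each gene 1 line for the whole comparison. The base mean is the authors' mean of normalised read counts over the 6 libraries of both genotypes. The log2 fold change is read as dsx stop/stop over wt, after the order in which the study names the genotypes, and the standard error (SE) belongs to it. Values per library were not analysed here, so the spread between pools is seen only through the SE, and no library could be left out. P values were computed from the log2 fold change divided by its SE (Wald test of DESeq2, two-sided normal P) and adjusted over the 9362 genes with the Benjamini-Hochberg method. The size factors, by which the counts of each library were divided, were not stated by the study. Values derived here from the base means ran from 0.202 to 2.36, an 11.7-fold range. The approximate read numbers in the study's text span a narrower range, and this difference was not examined. The mutated gene dsx had the lowest log2 fold change of the table (Dsx, -0.39, SE 0.129), and the 2 genes called at an adjusted P under 0.05 were Hsp90 and LOC410620. With the study's further limit, a log2 fold change above 1.5, the count was 0. The highest log2 fold change of the table was 0.72, for Hsp90, so no gene could reach this limit. Of the markers of the antenna, CSP1, Gr10 and the odorant receptor gene LOC100578724 were listed, with base means of 58480, 60.5 and 1212. Of the markers of fat body, 4 hexamerin genes were listed, with base means from 1.22 to 32.6. Hex70a had a log2 fold change of 0.35 (SE 0.113) and the other hexamerin genes lay between -0.039 and 0.034. Their part in the results was not tested.

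Cuticular protein families differ in how they take part in the cuticle. CPR proteins carry the Rebers-Riddiford consensus, by which they bind chitin, and form the largest family in insects. Cpap3 proteins bind chitin through peritrophin-type domains, of which they carry several in a row. CPF proteins are named for a short conserved motif, and apidermins (Apd) are small hydrophobic proteins first described in the honeybee. Most cuticle is laid down around a moult, and adult bees do not moult, although cuticle is still deposited for some days after emergence.

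All 4 families gave reads in adult antennae, at very unequal numbers. The base mean was at least 10 in 18 of the 26 genes, at least 100 in 10 and at least 1000 in 4. The 4 genes with the most reads, CPR14, CPR22, Apd-2 and CPR28, held 81.3% of the summed base mean of the 26 genes, and the 8 genes under a base mean of 10 held 0.295%. Together the 26 genes held 0.135% of the summed base mean of the table. The base mean counts reads and is not divided by transcript length, so it does not rank the genes by amount of RNA. In a bulk sample, fewer cells of a type and less RNA per cell cannot be told apart.

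**Figure D1:**
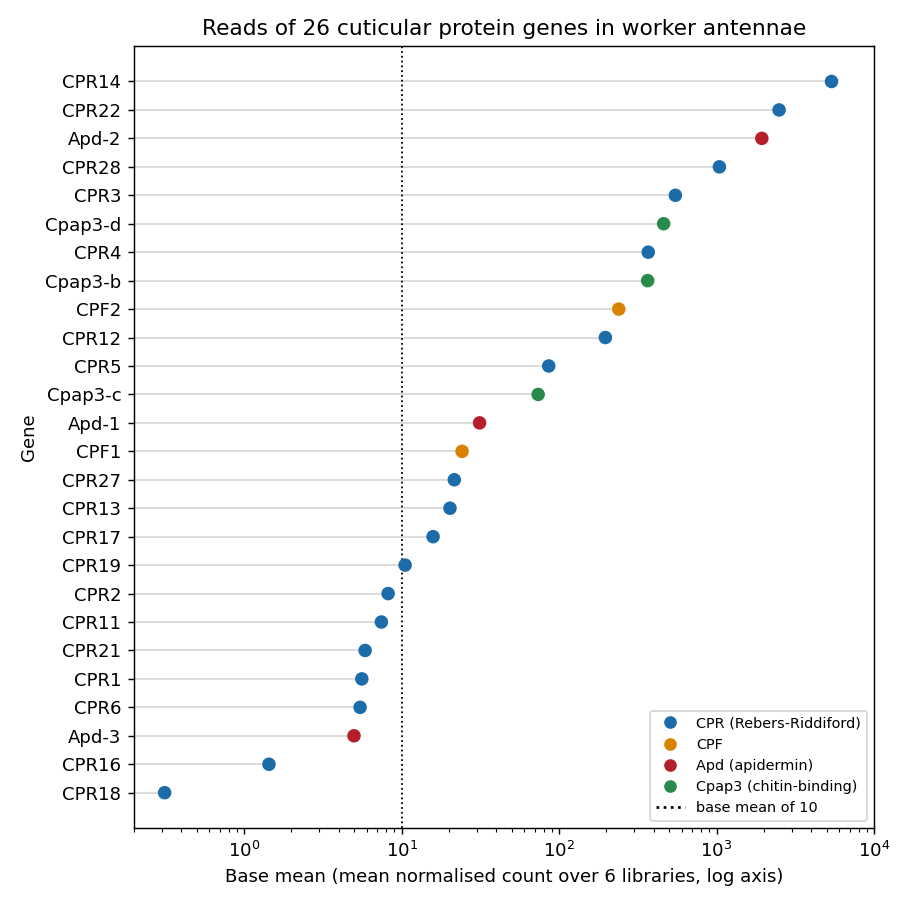
Base mean (mean normalised read count over 6 libraries, log axis) of each of the 26 cuticular protein genes, 1 point per gene, coloured by family. CPR14 stands at the top at 5375 and CPR18 at the bottom at 0.313, and 8 genes lie left of the dotted line at a base mean of 10.

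The CPR family covered the whole of this range. CPR14 on LG2 from 2994710 to 3003825 had a base mean of 5375, which was above that of 97.2% of the listed genes, and CPR22 on LG2 from 2974464 to 2977178 had a base mean of 2497. CPR28 on LG6 from 5280965 to 5283095 followed with 1043, CPR3 with 548, CPR4 with 369 and CPR12 with 197. In these 6 CPR genes the base mean exceeded 100. CPR5 stood at 86.1, CPR27 at 21.6, CPR13 at 20.3, CPR17 at 15.9 and CPR19 at 10.5. The other 7 CPR genes gave few reads, with 8.22 for CPR2, 7.45 for CPR11, 5.87 for CPR21, 5.60 for CPR1, 5.46 for CPR6, 1.44 for CPR16 and 0.313 for CPR18. The family thus held 3 of the 4 genes above a base mean of 1000 and 7 of the 8 under 10. It held 76.5% of the summed base mean of the 26 genes, or 57.4% where each base mean was divided by the genomic span of the gene in kb, introns included.

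Each of the apidermin genes was in another class of read number. Apd-2 on LG4 from 4488750 to 4490029 had a base mean of 1940, Apd-1 on LG4 from 4486092 to 4488233 had 31.3, and Apd-3 had 4.99. Apd-1 and Apd-2 are separated by 516 bp. The annotation holds 2 genes whose symbols differ from each other only in case, Apd-3 on LG4 from 4479531 to 4480371 and apd-3 on LG4 from 4454035 to 4457102, and the table has 1 line for this symbol. This line is spelled Apd-3, as is the gene from 4479531 to 4480371. Whether its values belong to that gene alone is uncertain. The apidermin genes held 14.8% of the summed base mean of the 26 genes, and 33.5% per kb of genomic span.

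The Cpap3 genes differed among themselves by a factor of 6.26 in base mean, the smallest ratio of the 4 families. Cpap3-d on LG3 from 12203358 to 12209166 had a base mean of 462, Cpap3-b on LG3 from 12741992 to 12744749 had 366, and Cpap3-c on LG3 from 12258005 to 12264713 had 73.7. Of the CPF genes, which lie 88 bp apart, CPF2 on LG15 from 7840678 to 7842089 had 240 and CPF1 on LG15 from 7842178 to 7843138 had 24.2. The Cpap3 genes held 6.74% and the CPF genes 1.98% of the summed base mean of the 26 genes, and 4.86% and 4.25% per kb of genomic span.

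Between dsx stop/stop and wt antennae, 0 of the 26 cuticular protein genes passed an adjusted P of 0.05 (Wald test of DESeq2 with Benjamini-Hochberg adjustment), against 2 of all 9362 genes, or 0.0214%. At an unadjusted P under 0.05 the count was also 0 of 26, against 0.641% of all genes. Evenly spread P values would give a share equal to the limit. The test was thus cautious, and a count of 0 does not show that the genotypes were equal. The log2 fold changes of the 26 genes ran from -0.28 to 0.26 with a median of 0.024, and 17 of 26 were above 0. In the 18 genes at or above a base mean of 10 the median was 0.058, and 14 of 18 were above 0. Over all 9362 genes the median was 0.0031, and 52.0% were above 0, and in the 7862 at or above a base mean of 10 these values were 0.0016 and 50.7%. In 21 of the 26 genes the change was smaller than its SE, and the 95% interval of each of the 26 genes, taken as 1.96 SE to either side, held 0. The lowest adjusted P of the 26 genes was 1.00.

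**Figure D2:**
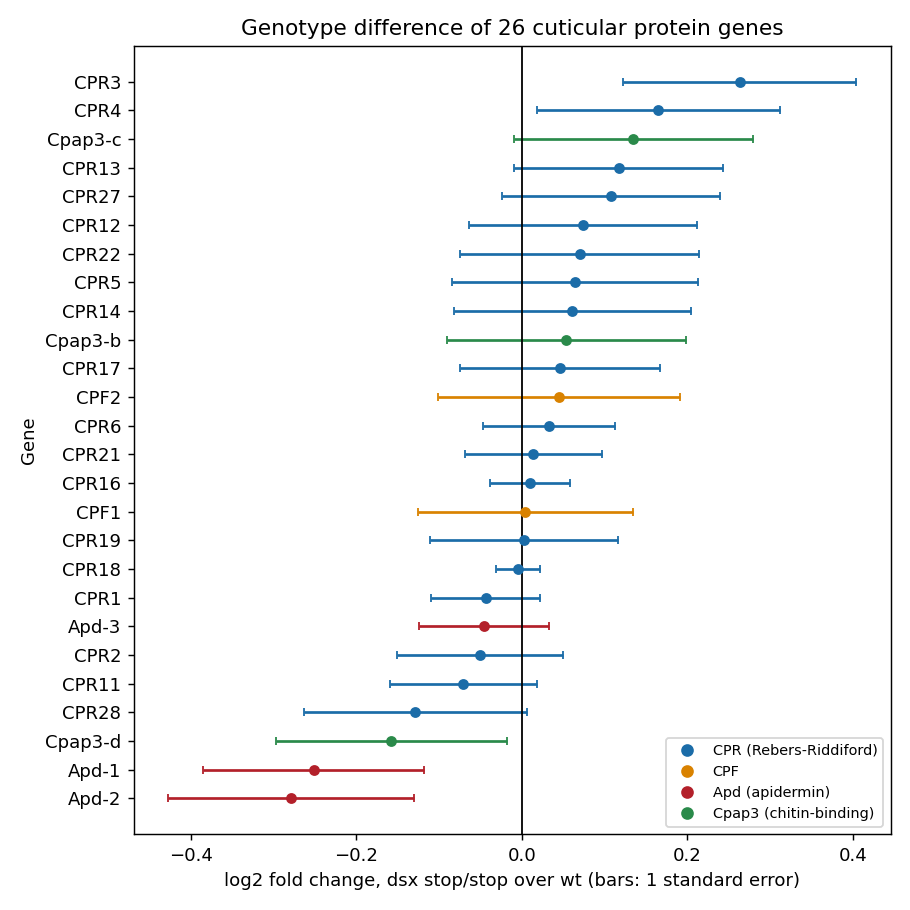
Log2 fold change of each of the 26 cuticular protein genes, dsx stop/stop over wt, with bars of 1 SE to either side, coloured by family and sorted by value. CPR3 lies highest at 0.26, Apd-1 and Apd-2 lie lowest at -0.25 and -0.28, and the bars of 21 genes reach across 0.

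The lowest values of the set belonged to the apidermins. The log2 fold change of Apd-2 was -0.28 (SE 0.148, 95% interval -0.57 to 0.012, Wald statistic -1.88), which is a 1.21-fold lower value in dsx stop/stop antennae and ranked 11th lowest of the 9362 genes. That of Apd-1 was -0.25 (SE 0.134, 95% interval -0.51 to 0.011, Wald statistic -1.88), a 1.19-fold lower value that ranked 20th lowest. The SE of Apd-1 is below the smallest that counting its reads allows, 0.180. With this SE its Wald statistic was -1.40 and its interval ran from -0.60 to 0.10. If its listed log2 fold change was shrunken toward 0, this pairs a shrunken change with an SE that is not shrunken. These 2 values then do not show a weaker change. Neither Apd-2 nor Apd-1 passed the test. Among the 200 genes nearest to each in base mean, 0 had a lower log2 fold change than Apd-2 and 0 had a lower one than Apd-1. The SE of Apd-2 was above that of 190 of its 200 nearest genes and close to the highest SE of the table, 0.149, and that of Apd-1 was above 90 of 200. The line Apd-3 was at -0.046 (SE 0.0789), so all 3 apidermin lines were below 0, 1 of them by less than its SE.

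The highest values belonged to a pair of neighbouring CPR genes. CPR3, which lies on LG11 from 6523732 to 6526109, was at 0.26 on the log2 scale (SE 0.141, 95% interval -0.013 to 0.54, Wald statistic 1.87), a 1.20-fold higher value in dsx stop/stop antennae that ranked 48th highest of the 9362 genes. CPR4, on LG11 from 6532019 to 6534202, was at 0.17 (SE 0.146, Wald statistic 1.13). Neither passed the test. Of the 200 genes nearest in base mean, 2 were higher than CPR3 and 7 were higher than CPR4. CPR1 and CPR2, which lie beside them on LG11, had few reads and were at -0.044 (SE 0.0661) and -0.051 (SE 0.10).

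The changes of the pair of CPR genes with the most reads were smaller than their SE. CPR14 was at 0.061 (SE 0.143, 95% interval -0.22 to 0.34) and CPR22 at 0.070 (SE 0.144, 95% interval -0.21 to 0.35). These intervals reach at most a log2 fold change of 0.35 in either direction. They do not bound the change if the listed log2 fold changes were shrunken toward 0. CPR28 was at -0.13 (SE 0.135, Wald statistic -0.95) and was the lowest of the 18 CPR genes. Of the 18 CPR genes 13 were above 0, and the median of the family was 0.040. The 9 CPR genes not named so far in this comparison with a value above 0 ran from 0.0028 for CPR19 to 0.12 for CPR13, and of those below 0, CPR11 was at -0.071 and CPR18 at -0.0043.

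The Cpap3 genes did not share a direction. Cpap3-d was at -0.16 (SE 0.139, Wald statistic -1.13), Cpap3-b at 0.054 (SE 0.144) and Cpap3-c at 0.14 (SE 0.144, Wald statistic 0.94). The intervals of Cpap3-d, from -0.43 to 0.12, and of Cpap3-c, from -0.15 to 0.42, overlap. CPF2 was at 0.045 (SE 0.146) and CPF1 at 0.0045 (SE 0.129), so both were close to 0.

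**Figure D3:**
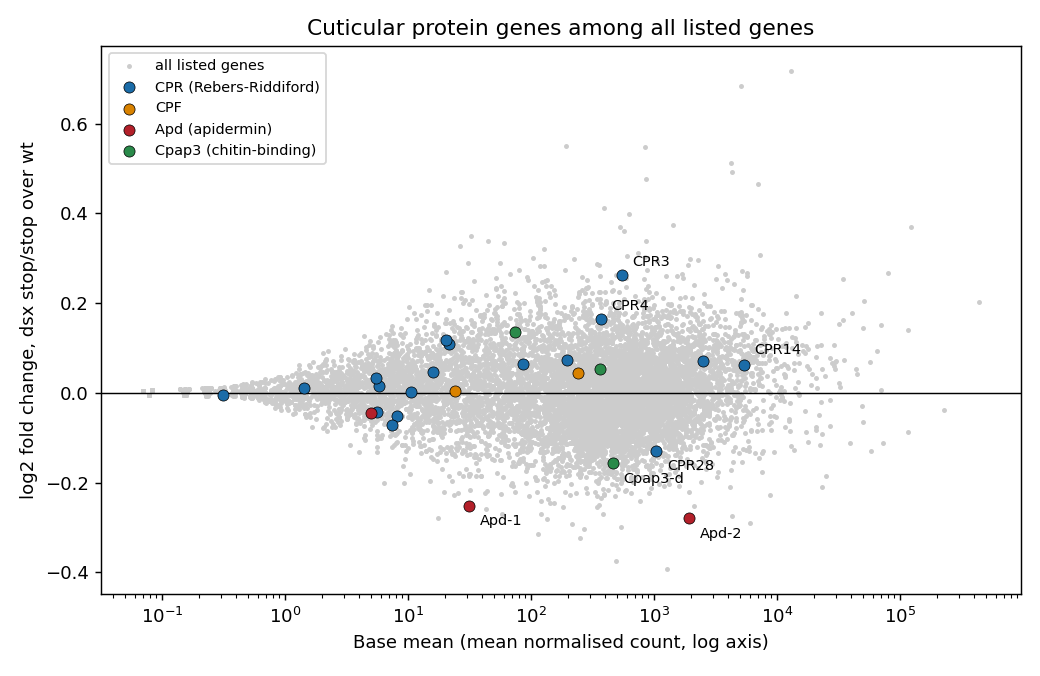
Log2 fold change (dsx stop/stop over wt) against base mean (log axis) for all 9362 listed genes in grey and the 26 cuticular protein genes coloured by family. Apd-1 and Apd-2 lie at the lower edge of the cloud of genes with similar base mean and CPR3 near its upper edge, and CPR14 and CPR22 lie within it.

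At an unadjusted P under 0.1, a limit chosen after the values were seen, the count was 3 of the 26 genes, or 11.5%, against 138 of all genes, or 1.47%. The 3 genes were Apd-1, Apd-2 and CPR3, of which 2 were lower and 1 was higher in dsx stop/stop antennae. With each SE raised to the counting limit where it was below it, Apd-1 dropped out and the count was 2 of 26, or 7.69%, against 1.21% of all genes. If the log2 fold changes were shrunken toward 0, only the SE was raised here, so the drop does not show a weaker change of Apd-1. In the 10 cuticular protein genes above a base mean of 100, the median absolute log2 fold change was 0.10, against 0.061 in the 6024 listed genes of this class. The SD of the log2 fold changes was 0.16 in these 10 genes and 0.093 in the class. Apd-2 at -0.28 and CPR3 at 0.26 were the lowest and highest of these 10 genes. The SD is therefore not separate from the count above. These values describe genes that share the same 6 libraries and are no test of the set.

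The SE of the genes with few reads was small for their number of reads. The 8 genes with a base mean under 10 had SEs from 0.027 to 0.10, while the 10 genes above a base mean of 100 had SEs from 0.135 to 0.148. Calculated from base means and size factors, the smallest SE that counting reads allows was 0.450 for Apd-3, 0.425 for CPR1 and 1.80 for CPR18, which is 5.70, 6.42 and 66.5 times the listed SE. In 14 of the 26 genes the listed SE was below this limit, against 29.4% of all listed genes. Under a base mean of 10 the share was 100% both in the cuticular protein genes and in all listed genes. From 10 to 100 it was 75% and 67.9%, and at or above 100 it was 0% and 0.0996%. The 14 genes were the 8 genes with a base mean under 10 and Apd-1, CPF1, CPR13, CPR17, CPR19 and CPR27. SEs of log2 fold changes shrunken toward 0 can lie below it, and a fold change of such a gene may then be too small. A value near 0 in these 14 genes therefore does not show that the genotypes had the same number of reads. For Apd-2, CPR3 and CPR14 the counting limit was 0.023, 0.043 and 0.014, below the listed SE. An SE above the limit does not show that a fold change was not shrunken. No SE of the table exceeded 0.149, and whether the fold changes of all genes were shrunken was not tested.

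**Figure D4:**
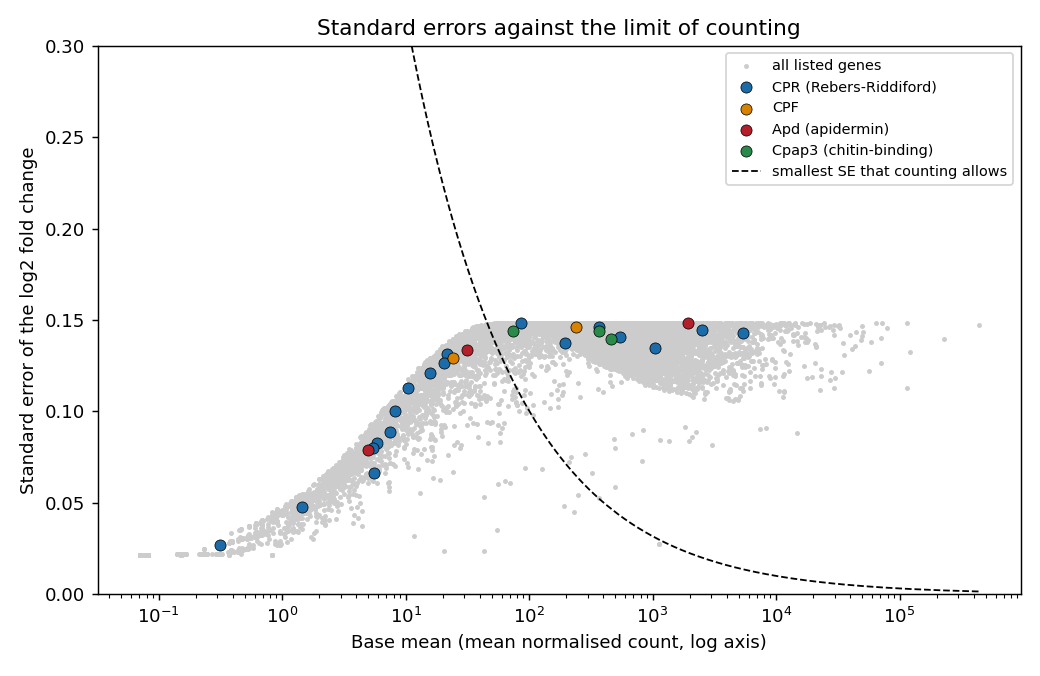
Standard error of the log2 fold change against base mean (log axis) for all 9362 listed genes in grey and the 26 cuticular protein genes coloured by family, with the smallest SE that counting reads allows as a dashed line. The 14 genes left of the line lie below it, and the 12 genes with more reads lie above it.

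Of the 26 genes, 19 lie in 6 groups in which neighbours are at most 100 kb apart. The largest group holds CPR17, CPR18, CPR21, CPR22 and CPR14 on LG2 from 2920896 to 3003825, a span of 82.9 kb, in which base means ran from 0.313 to 5375 and log2 fold changes from -0.0043 to 0.070. Neighbours thus differed widely in reads while none of these 5 changes exceeded its SE. CPR18 and CPR21, both with a base mean under 10, are 204 bp apart. The group of CPR1, CPR2, CPR3 and CPR4 on LG11 spans 29.2 kb, with the genes of few reads at 1 end and those of more reads at the other. The third group of CPR genes, CPR13, CPR12 and CPR28 on LG6 from 5258316 to 5283095, held values on both sides of 0, with CPR13 at 0.12, CPR12 at 0.074 and CPR28 at -0.13. In the apidermin group on LG4 all values were below 0.

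Other listed genes within or next to these groups showed no change that passed the test. The 23 such genes had log2 fold changes from -0.080 to 0.21 with a median of 0.012, and none had an unadjusted P under 0.05. The nearest listed genes on either side of the apidermin group, the long noncoding RNAs LOC113218711 and LOC107964265, were at 0.085 (SE 0.118) and 0.010 (SE 0.0337). The nearest ones beside the group on LG11, LOC100577766 and LOC107965751, were at 0.0016 (SE 0.149) and -0.024 (SE 0.122).

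Some of the genes overlap others by their start and end, and whether the overlapping parts are exons was not examined. Whether the library kit marked the strand is not given in the sources used here. Where exons overlap, reads cannot be assigned with certainty. The long noncoding RNA LOC113218841 on LG6 from 5258598 to 5263477 covers the whole of CPR12 and 794 bp of CPR13. It had a base mean of 204, against 197 for CPR12, and a log2 fold change of 0.0050 (SE 0.142). Whether the genes share reads was not tested. CPR6 on LG8 from 3969484 to 3975756 lies within the span of LOC409628, a gene with a base mean of 1197. The overlaps of CPF2, Cpap3-b and Cpap3-d with neighbouring genes were 16, 85 and 10 bp long, and apd-3 shares 2026 bp with LOC113218711. No annotated gene overlaps Apd-1, Apd-2, CPR3, CPR14 or CPR22.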

How the data were processed

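RNA from the antennae of 6 pools of 5 worker bees, 3 for each genotype, was sequenced with single-end reads of 150 bp. The authors mapped the reads to the transcriptome of Amel_HAv3.1 with kallisto and compared the genotypes with DESeq2. The study's limits were an adjusted p-value under 0.05 and a log2 fold change above 1.5. Versions and other settings of both programs are not given in the sources used here. The study's text names a normalisation per kilobase, but the base means were read as counts over size factors, because of the shared values described below. The deposited table holds, per the file headers, a base mean (signal, mean normalised count), a log2 fold change and its SE (log2), a Wald score, a p-value, an adjusted p-value and a -log10 value. Decimal commas were read as points. The deposited Wald score was used only for a check (largest difference 7.9e-07), and the deposited p-values were not used. The last line, LOC724262, has no deposited p-value but was included.

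The members and lists were chosen with earlier results of these data known. Size factors were derived from base means under 1 that at least 3 genes share and that are not sums of smaller ones, each being 1 read in 1 library. 6 values with a geometric mean of 1.00 were found in 93 genes. The counting limit of the SE is the square root of 4 over the product of base mean and summed size factors (8.25), divided by the natural log of 2. The scripts were tested on simulated data. Every cuticular protein gene is named, and full values go to those at the ends of each family by reads, by fold change and by p-value. Positions and symbols are from RefSeq (Amel_HAv3.1), matched with case ignored. Levels per coding length had been planned, but transcript lengths and sequences were not used here. Of the marker lists, 3 of 4 antennal, 0 of 4 neuronal, 4 of 5 fat body and 0 of 3 muscle symbols were listed, and 0 of 16 symbols of chitin and tanning enzymes were, so these could not be described. In the annotation, 2 of the 4 neuronal, 0 of the 3 muscle and 1 of the 16 enzyme symbols exist. The symbols that exist there were not listed, and genes of the other symbols may be listed under different symbols. Genes with IDs after LOC724262 in alphabetical order were mostly not analysed here. Alternatives were the p-value, the genes in the adjustment, the centre and spread of the values, and the level. Calculations used Python 3.11.15, numpy 2.4.6, pandas 2.3.3, scipy 1.17.1 and matplotlib 3.10.9.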

Additional observations from a re-analysis of the deposited data

How the results depend on the processing

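The count of cuticular protein genes called was 0 with an unadjusted P under 0.05, with the adjustment over the 7862 genes at or above a base mean of 10 or the 6024 at or above 100, relative to the 200 genes of similar base mean, and with Wald statistics divided by their robust SD of 0.649, where the lowest adjusted P of the 26 genes was 0.415 and 16 of all genes were called. With an unadjusted P under 0.1, chosen after seeing the data, it was 3, and 2 with SEs raised to the counting limit. The count with raised SEs can be too low if the log2 fold changes were shrunken toward 0. The median log2 fold change of 0.024 was 0.058 in genes at or above a base mean of 10, 0.058 at or above 100, 0.010 after subtraction of the median of similarly read genes and -0.0013 as a mean weighted by the inverse of the squared SE, which gives most weight to genes with few reads. With a limit of 1 in place of 10, 25 genes in place of 18 passed on base mean. Per kb of genomic span, introns included (chosen after seeing the data), the shares of the summed level were 57.4% for CPR, 33.5% for Apd, 4.86% for Cpap3 and 4.25% for CPF, so the order of the families by share stayed the same. No paired analysis was possible because values per library were not analysed here, which also precluded leaving out a library or another normalisation.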
